A study of Brassica napus with 30 samples.

Results

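Gene expression was compared between seeds of oilseed rape (Brassica napus) that had taken up water for 8 h at 8 °C and dry seeds of the same genotype. The comparison uses 12 of the 30 RNA-seq libraries of the series, chosen by their labels: 3 libraries of 8 h 8 °C seeds and 3 of dry seeds in each of the genotypes JY1621 and JY1605. It asks which transcripts are the first to differ from those of the dry seed during cold water uptake, and what both genotypes share in this. The other libraries hold seeds imbibed for 8 h in the warm (25 °C) or for 36 h at either temperature. They are used to follow the gene models found here, and they enter the filter, scaling and spread estimate of the shared fit. The 8 h seeds were collected at zeitgeber time 8 and the dry seeds at zeitgeber time 0. Water uptake, cold and time of day thus changed together in the comparison and cannot be told apart. The 36 h seeds were collected at zeitgeber time 12. Where 36 h is set against 8 h, longer imbibition and time of day cannot be told apart either. The labels give seed as the tissue and genotype as the only other attribute, and no further treatment or allele. RNA came from 100 seeds per sample, so each value is an average over whole seeds, in which fewer cells of a type and less RNA per cell cannot be told apart. The libraries of a group are called biological replicates, but separate seed lots are not stated. The p-values therefore judge an effect against the spread between libraries of a group, estimated over all 30 libraries. They may not cover the spread between seed lots.

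Dry seeds hold messenger RNA that was made while the seed matured and then stored. When water enters (imbibition), translation of stored transcripts begins, transcription resumes, and stored transcripts start to be degraded, well before the root emerges. Low temperature slows these steps. Oilseed rape carries an A and a C subgenome, so most genes exist as similar copies.

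The deposited table gives read counts for 100919 gene models, of which 57945 had enough counts to be tested. Total counts in the 12 libraries lay between 14250480 and 23355757. Pearson correlations of log2 CPM (counts scaled to a common library size) between libraries of a group were 0.972 to 0.981, and each of the 12 libraries was closest to another of its own group. Between 8 h 8 °C and dry libraries the correlations were 0.951 to 0.963 in JY1621 and 0.965 to 0.969 in JY1605. No library stood apart. The gene IDs could not be paired with gene names or sequences, so gene models are described by their level, their position and their course, 4 of them by ID, and seed marker genes could not be looked up to check the labelled tissue.

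Many more gene models were called higher than lower after 8 h at 8 °C, in both genotypes. In JY1621, 3483 gene models rose (6.01% of those tested) and 278 fell (0.48%). In JY1605, 1728 rose (2.98%) and 245 fell (0.423%). A gene model was called where edgeR's quasi-likelihood test gave a Benjamini-Hochberg adjusted p under 0.05 over all tested models and the fold change between the groups was at least 1 on the log2 scale, a doubling or a halving. The median log2 fold change of the called risers was 1.82 in JY1621 and 1.57 in JY1605, and that of the called fallers was -1.51 and -1.45. Over all tested gene models the median was -0.02 in JY1621 and 0 in JY1605.

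The risers were of low level in dry seeds, which the choice of risers favours. Their median level in JY1621 was 2.68 CPM in 8 h 8 °C seeds and 0.737 CPM in dry seeds. In JY1605 it was 2.77 CPM in 8 h 8 °C seeds and 0.967 CPM in dry seeds. Over all tested models the medians in JY1621 were 3.45 CPM at 8 h 8 °C and 3.24 CPM in dry seeds. In JY1605 these were 3.29 and 3.12 CPM, so at 8 h the risers were nearer to the typical model. Only 33 risers of JY1621 and 31 of JY1605 passed 100 CPM after 8 h at 8 °C. Some had no count in the dry libraries of their genotype: 167 of the risers in JY1621 and 109 in JY1605. For these a bound was computed by setting the dry group to 3 counts in sum, and the highest bounds were at least 216-fold higher in JY1621 and at least 46.4-fold higher in JY1605. Most of them were scarce, with a median of 12 counts in JY1621 and 14 in JY1605 over the 3 libraries at 8 °C. Both lists shared 15 such models.

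**Figure D1:**
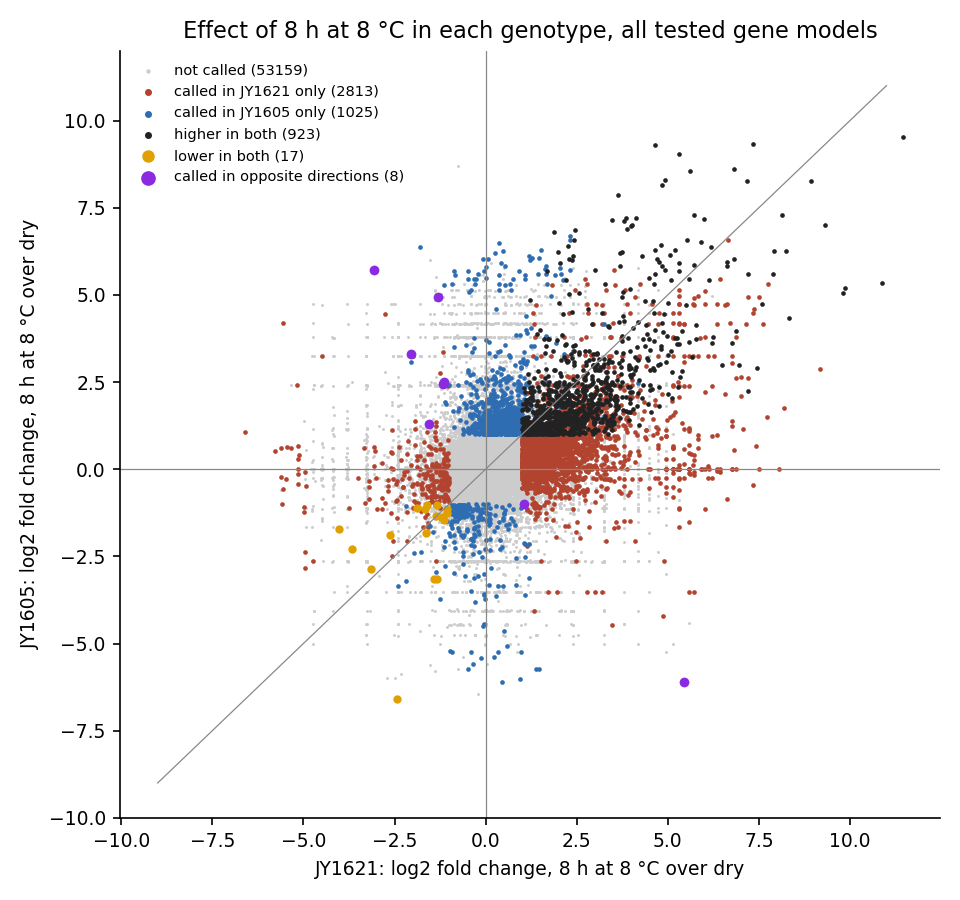
Log2 fold change between 8 h 8 °C and dry seeds in JY1621 (horizontal axis) and JY1605 (vertical axis), with 1 point for each of the 57945 tested gene models and colours for calls. Fitted values are shown also where a group had no count. The 923 models called higher in both genotypes lie in the upper right, and 652 of them are below the diagonal, where the change is larger in JY1621.

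Without the fold requirement the picture of the fallers changed. At the adjusted p alone, JY1621 had 6310 higher (10.9%) and 4818 lower models (8.31%), and JY1605 had 5046 higher (8.71%) and 2518 lower ones (4.35%). Of the models lower by this rule, 5.77% in JY1621 and 9.73% in JY1605 passed the fold requirement, against 55.2% and 34.2% of those that were higher. The small decreases were in abundant transcripts, whose higher counts also let small changes pass the test. The models lower at the adjusted p alone had a median dry level of 30.6 CPM in JY1621 and 30.9 CPM in JY1605, and their median log2 fold changes were -0.42 and -0.44.

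Many of these small decreases were common to both genotypes. At the adjusted p alone, 1312 gene models were lower in both, which is 27.2% of the list of JY1621 and 52.1% of the list of JY1605. Their median dry level was 50.2 CPM in JY1621 and 56 CPM in JY1605. These counts depend on how libraries are scaled. The values above use edgeR's TMM factors, which centre the libraries on the bulk of the gene models. Scaling by library size alone raised each log2 fold change by a median of 0.2 in JY1621 and 0.1 in JY1605. It left 787 models lower in JY1621, 1130 in JY1605 and 219 in both, with 10118 higher in JY1621 and 7201 higher in JY1605. The split of calls in JY1621 was then 92.8% higher and 7.22% lower, against 56.7% and 43.3% with TMM factors. In JY1605 it was 86.4% higher and 13.6% lower, against 66.7% and 33.3%.

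The same tilt appeared when gene models were ordered by their level in dry seeds. To keep the ordering apart from the fold change, the level was taken from the dry seeds of the other genotype. Among models over 1000 CPM, the median log2 fold change in JY1621 was -0.44, and 119 of 119 models had a negative value. In JY1605 it was -0.32, with 89 of 106 negative. Of all tested models, 52.8% were negative in JY1621 and 47.3% in JY1605. The medians of models between 100 and 1000 CPM were -0.26 in JY1621 and -0.12 in JY1605. Models between 0.1 and 1 CPM had medians of 0.17 and 0.1, and the upper quartiles there were 0.87 in JY1621 and 0.69 in JY1605. Risers past the fold limit were most frequent between 0.1 and 1 CPM, with 10.9% in JY1621 and 4.83% in JY1605, and 0.931% and 0.603% of the models of that class fell. Under 0.1 CPM the shares that rose were 7.57% in JY1621 and 2.2% in JY1605, and between 10 and 100 CPM they were 1.7% and 1.37%. Without the fold limit the order was another one in both genotypes. In JY1621, 11.6% were higher between 0.1 and 1 CPM and 13% between 1 and 10 CPM. In JY1605, 5.12% were higher between 0.1 and 1 CPM and 14.5% between 10 and 100 CPM. Under library size scaling the class over 1000 CPM had medians of -0.25 in JY1621 and -0.22 in JY1605, and the class between 100 and 1000 CPM -0.06 and -0.02. The class between 10 and 100 CPM changed sign, to 0.08 in JY1621 and 0.07 in JY1605.

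**Figure D2:**
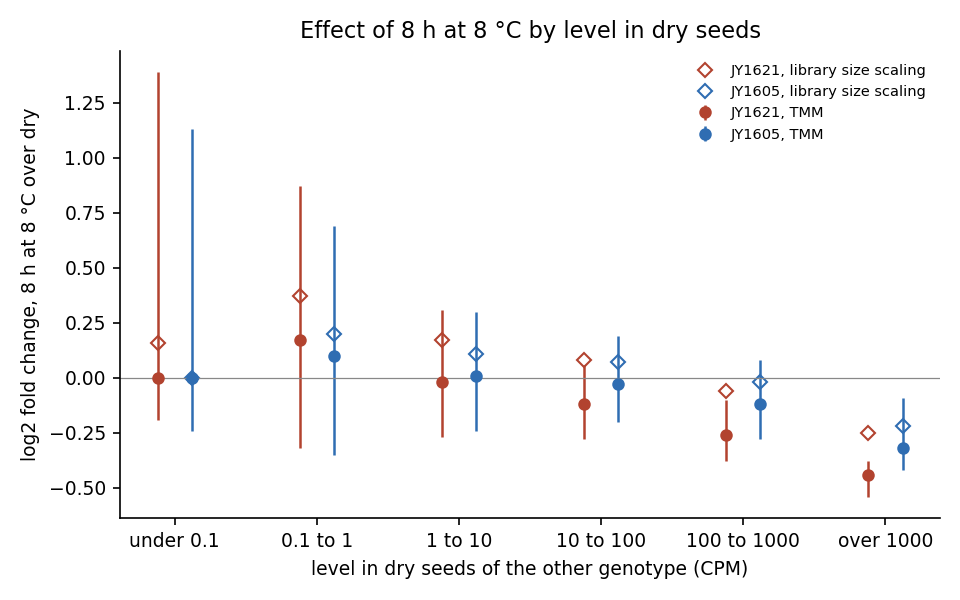
Log2 fold change between 8 h 8 °C and dry seeds (vertical axis) in classes of the level in dry seeds of the other genotype (horizontal axis, CPM). Filled points are medians with TMM factors, bars run from the lower to the upper quartile, and open diamonds are medians with library size scaling. The class over 1000 CPM has medians of -0.44 in JY1621 and -0.32 in JY1605.

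Both genotypes shared most of the risers of JY1605. In all, 923 gene models rose in both (1.59% of those tested), which is 26.5% of the risers of JY1621 and 53.4% of those of JY1605. The shared risers had a median log2 fold change of 2.36 in JY1621 and 1.78 in JY1605, and the change was larger in JY1621 in 652 of them, or 70.6%. Their median level at 8 h 8 °C was 5.23 CPM in JY1621 and 2.77 CPM in JY1605, and in dry seeds 0.945 CPM and 0.873 CPM. The difference of the effect between genotypes was itself called larger in JY1621 in 89 of the 923, against 1.19% of all tested models. It was called larger in JY1605 in 3 of them, against 0.395% of all. The same libraries chose the 923.

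The fallers shared were 17 gene models (0.0293%). They make up 6.12% of the fallers of JY1621, against 0.423% of all tested models that fell in JY1605. They make up 6.94% of the fallers of JY1605, against 0.48% of all that fell in JY1621. The call requires a halving in both, and many fallers lay close to that limit: 48.6% of those in JY1621 and 53.9% in JY1605 had an absolute log2 fold change under 1.5. Of the risers, 35.3% in JY1621 and 46.3% in JY1605 lay under 1.5.

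Each list was then read in the other genotype, whose fold changes had no part in choosing it. Of the 3483 risers of JY1621, 85.6% had a positive log2 fold change in JY1605, against 48.8% of all tested models. Their median there was 0.78, and 26.5% were called, against 2.98% of all. Of the 1728 risers of JY1605, 90.8% were positive in JY1621, against 44.5% of all. Their median in JY1621 was 1.3, and 53.4% were called, against 6.01% of all. The direction thus carried over for most risers, also for those that did not reach the call in the second genotype. Scarce models were less often negative in any case. Between 0.1 and 1 CPM in dry seeds of the other genotype, 41.2% were negative in JY1621 and 42.4% in JY1605. Over all tested models these shares were 52.8% and 47.3%. The 2558 models that were called higher in JY1621 alone, with no call in JY1605, had a median log2 fold change of 0.52 in JY1605.

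The lists of fallers were read in the same way. Of the 278 fallers of JY1621, 66.9% were negative in JY1605, against 47.3% of all tested models, and 6.12% were called there, against 0.423% of all. Of the 245 fallers of JY1605, 73.5% were negative in JY1621, against 52.8% of all, and 6.94% were called, against 0.48% of all. Most fallers were scarce, with a median dry level of 1.29 CPM in JY1621 and 1.71 CPM in JY1605. Their lists were not stable in their members. Without replicate 2 at 8 h 8 °C of the same genotype, 45% stayed called in JY1621 and 49.4% in JY1605.

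How often a riser was called in the other genotype depended on its size. Of the JY1621 risers with a log2 fold change of 1 to 1.5, 12.8% were called higher in JY1605. Of those between 3 and 4, 43.3% were. For the risers of JY1605 measured in JY1621 the shares were 43.8% and 70.8%. The class of 4 and over was a little lower, at 37.9% in JY1605 and 63.1% in JY1621. The models of that class were also the scarcest, with medians of 0.729 CPM and 0.41 CPM at 8 h 8 °C in the genotype that chose them.

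The difference between genotypes was tested directly. The effect was higher in JY1621 than in JY1605 in 687 gene models (1.19%) and lower in 229 (0.395%). With library size scaling these were 906 and 118, so that 88.5% of the called differences were higher in JY1621, against 75% with TMM factors. The count of 229 also rested on single libraries. It was 356 without replicate 1 and 101 without replicate 2 of JY1605 at 8 h 8 °C, and 107 without replicate 2 of dry JY1605. It was 392 without replicate 1 and 141 without replicate 3 of JY1621 at 8 h 8 °C, and 127 without replicate 1 of dry JY1621. Leaving out any 1 of the 12 libraries kept the count of 687 between 483 and 786.

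Most calls in one genotype alone were not called differences. Of the 2558 models called higher in JY1621 and not called in JY1605, 477 had a called difference and 2081 did not. The 2081 had median log2 fold changes of 1.61 in JY1621 and 0.61 in JY1605. Of the 799 called higher in JY1605 and not called in JY1621, 110 had a called difference and 689 did not. The 689 had medians of 0.46 in JY1621 and 1.38 in JY1605.

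The 477 models that rose in JY1621 and differed from JY1605 were chosen by their dry and 8 h 8 °C levels, where their medians in JY1621 were 5.25 CPM at 8 h and 1.69 CPM dry, and in JY1605 3.41 CPM at 8 h and 2.93 CPM dry. The levels of the later libraries had no part in that choice. These libraries did enter the filter, the scaling and the spread estimate of the fit. In the fit of the 12 libraries alone, 508 differences were called higher in JY1621 over all tested models, against 687 in the shared fit. How many of the 477 models kept their call there is not given. After 36 h at 8 °C the median was 10.2 CPM in JY1621 and 10.9 CPM in JY1605, and after 8 h at 25 °C it was 8.13 CPM and 7.34 CPM. The median levels of both genotypes thus lay close together in the warm and at the later time, where no difference was tested. The 110 models of the reverse kind had medians of 3.93 CPM in JY1621 and 5.25 CPM in JY1605 after 36 h at 8 °C.

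Calls in opposite directions numbered 8. Of the 278 fallers of JY1621, 6 were called higher in JY1605, as were 2.98% of all tested models. Of the 245 fallers of JY1605, 2 were called higher in JY1621, as were 6.01% of all. The difference between genotypes was called in each of the 8, which were chosen for their opposite calls. All were scarce, with at most 83 counts summed over the 3 libraries of a group.

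Of the shared risers and fallers, 185 and 4 averaged 8 CPM or more over the 12 libraries. The 2 in each direction whose smaller fold change was largest are described by ID. Their chromosomes are read from the IDs, and what they encode is not known here.

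BnaA06G0190900ZS, on chromosome A06, was close to absent from dry seeds. In JY1621 it had 35.8, 44.9 and 36.8 CPM in the 3 libraries at 8 h 8 °C and 0.763, 0.155 and 0.64 CPM in dry seeds. In JY1605 it had 42.6, 27.1 and 27.2 CPM at 8 h 8 °C and 0.158, 0.437 and 0.576 CPM in dry seeds. Every library at 8 °C was far above every dry library in both genotypes. The dry values rest on 24 counts in JY1621 and 14 in JY1605, summed over 3 libraries. The log2 fold change was 6.18 (SE 0.425, adjusted p = 3.27e-10, edgeR) in JY1621 and 6.38 (SE 0.479, adjusted p = 6.29e-09, edgeR) in JY1605. At 8 h the level was higher at 8 °C than at 25 °C in JY1605 by 1.12 on the log2 scale (adjusted p = 0.000495, edgeR), with 32.3 ± 8.94 CPM at 8 °C and 14.8 ± 2.3 CPM at 25 °C (SD, n = 3). In JY1621 the gap of 0.83 stayed under the fold limit (adjusted p = 0.00582, edgeR).

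BnaA08G0218200ZS, on A08, was among the more abundant risers. In JY1621 it had 151, 208 and 190 CPM at 8 h 8 °C and 6.64, 7.03 and 5.54 CPM in dry seeds. In JY1605 it had 121, 103 and 96.6 CPM at 8 h 8 °C and 1.98, 1.24 and 2.59 CPM in dry seeds. The groups did not overlap in either genotype. The log2 fold change was 4.85 (SE 0.412, adjusted p = 1.26e-08, edgeR) in JY1621 and 5.82 (SE 0.501, adjusted p = 5.89e-08, edgeR) in JY1605. After 36 h at 8 °C the mean was 188 ± 57.3 CPM in JY1621 and 306 ± 146 CPM in JY1605 (SD, n = 3). Relative to 8 h at 8 °C this was a rise in JY1605, by 1.52 on the log2 scale (adjusted p = 0.000269, edgeR). In JY1621 that change was 0.04 (adjusted p = 0.933, edgeR). The test of the genotype difference in the 8 h effect was not passed by either riser: it was -0.2 (SE 1.02) for BnaA06G0190900ZS and -0.97 (SE 0.733) for BnaA08G0218200ZS on the log2 scale, JY1621 minus JY1605.

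The fallers BnaA05G0039200ZS and BnaA05G0039300ZS are neighbours on A05 by their IDs, so they may share reads if they are similar, and they are not independent of each other. BnaA05G0039200ZS had 18, 16.1 and 19.7 CPM at 8 h 8 °C and 63.8, 43.7 and 32 CPM in dry seeds of JY1621. In JY1605 it had 6.96, 4.23 and 2.94 CPM at 8 h 8 °C and 9.72, 10.6 and 14.9 CPM in dry seeds. All libraries at 8 °C were below all dry libraries of their genotype. The log2 fold change was -1.37 (SE 0.243, adjusted p = 0.000204, edgeR) in JY1621 and -1.33 (SE 0.299, adjusted p = 0.00362, edgeR) in JY1605. The JY1605 call was lost in the fit of the 12 libraries alone, where the log2 fold change was -1.32.

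BnaA05G0039300ZS had 22.9, 20.9 and 30.3 CPM at 8 h 8 °C and 64.5, 50.5 and 48 CPM in dry seeds of JY1621. In JY1605 it had 1.8, 2.64 and 2.17 CPM at 8 h 8 °C and 7.98, 1.46 and 9.69 CPM in dry seeds. The groups were apart in JY1621, whereas in JY1605 the second dry library lay below all 3 libraries at 8 °C. The log2 fold change was -1.14 (SE 0.307, adjusted p = 0.0114, edgeR) in JY1621 and -1.46 (SE 0.466, adjusted p = 0.0417, edgeR) in JY1605. The JY1605 call was lost in 5 of the 6 fits that left out 1 of its own libraries, with log2 fold changes of -1.63 to -1.05, and was kept without dry replicate 2, at -1.97. It was also lost in the fit of the 12 libraries alone (-1.45). The JY1621 call was lost in that fit (-1.14), with the DESeq2 Wald test (-1.18), with library size scaling (-0.94) and without replicate 2 at 8 h 8 °C or replicate 1 of dry seeds.

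Both neighbours fell further. Between 36 h and 8 h at 8 °C, BnaA05G0039200ZS changed by -3.23 on the log2 scale in JY1621 (adjusted p = 7.14e-10, edgeR) and -3.15 in JY1605 (adjusted p = 2.33e-07, edgeR). BnaA05G0039300ZS changed by -3.85 in JY1621 (adjusted p = 1e-08, edgeR) and -3.1 in JY1605 (adjusted p = 0.000399, edgeR). At 8 h, both were higher at 8 °C than at 25 °C in both genotypes. For BnaA05G0039300ZS in JY1621 the level was 24.7 ± 4.96 CPM at 8 °C and 2.61 ± 0.466 CPM at 25 °C (SD, n = 3), a log2 difference of 3.23 (adjusted p = 1.34e-07, edgeR).

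**Figure D3:**
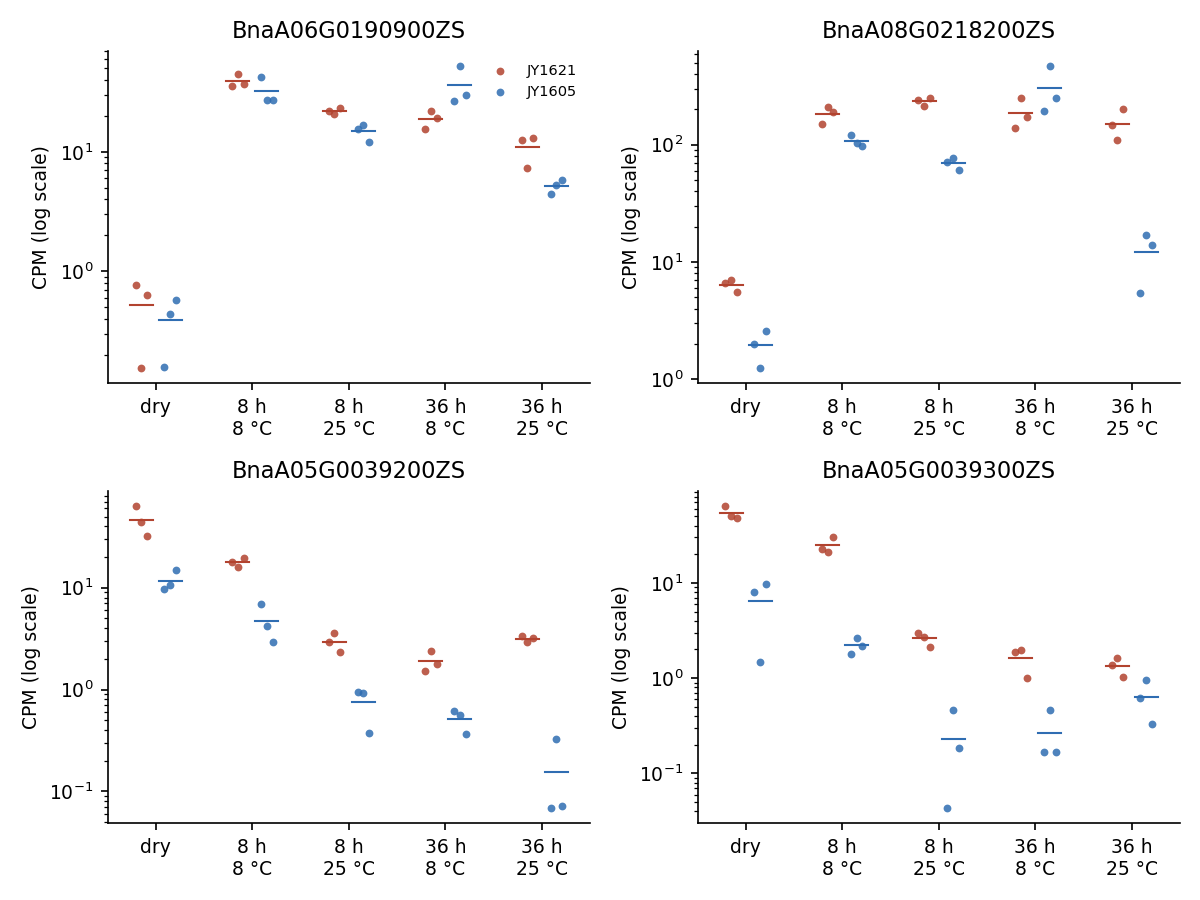
CPM (log scale) of the 4 gene models given by ID in every library, in stage order, with JY1621 left of JY1605 at each stage. Points are libraries and lines are means of 3. The upper models lie above the dry libraries of their own genotype in all imbibed libraries, by least in JY1605 at 36 h 25 °C for BnaA08G0218200ZS, and the lower pair falls at 8 h 8 °C and further in the other imbibed groups.

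The course of the lists was followed in the genotype whose fold changes had not chosen them. The risers of JY1621 took 1.77%, 1.55% and 1.57% of the counts in the 3 JY1605 libraries at 8 h 8 °C and 0.867%, 0.871% and 0.876% in the dry ones. The means were 1.63% ± 0.122 at 8 h 8 °C and 0.871% ± 0.00451 in dry seeds (SD, n = 3), a ratio of 1.87. The risers of JY1605 took 2.34% ± 0.217 of the counts in JY1621 at 8 h 8 °C and 1.09% ± 0.0751 in dry seeds (SD, n = 3), a ratio of 2.14. The groups did not overlap. With 3 libraries against 3, an exact permutation test cannot give a p below 0.1, so no such comparison can pass 0.05.

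In JY1605 most risers of JY1621 were higher at 36 h than at 8 h in the cold. Their median level in JY1605 was 0.874 CPM in dry seeds, 1.57 CPM at 8 h 8 °C, 3.12 CPM at 8 h 25 °C, 4.63 CPM at 36 h 8 °C and 2.75 CPM at 36 h 25 °C. Between 36 h and 8 h at 8 °C, 65.2% of them rose in JY1605, against 23.8% of all tested models, and 2.3% fell, against 23% of all. After 36 h at 8 °C they took 8.28%, 9.19% and 8.07% of the counts in the 3 libraries of JY1605. Of the 5 conditions, 36 h 8 °C was the highest for 57% of them, against 21% of all tested models.

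In JY1621 the risers of JY1605 came closer to their later level by 8 h. Within JY1621 their median was 1.35 CPM in dry seeds, 4.06 CPM at 8 h 8 °C, 4.93 CPM at 8 h 25 °C, 5.13 CPM at 36 h 8 °C and 4.06 CPM at 36 h 25 °C. Between 36 h and 8 h at 8 °C, 28.5% of them rose in JY1621, against 19.9% of all, and 14.7% fell, against 20.1% of all. These lists differ in their members, so the courses are given side by side and were not tested against each other. The 923 shared risers are the same models in both genotypes. Their median in JY1621 was 5.23 CPM at 8 h 8 °C, 6.45 CPM at 8 h 25 °C and 6.29 CPM at 36 h 8 °C. In JY1605 it was 2.77 CPM at 8 h 8 °C, 4.9 CPM at 8 h 25 °C and 8.67 CPM at 36 h 8 °C.

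More of the risers had their higher level in the warm than in the cold. At 8 h in JY1605, 45.8% of the risers of JY1621 were lower at 8 °C than at 25 °C, against 21.3% of all tested models, and 6.29% were higher, against 20% of all. At 8 h in JY1621, 26.5% of the risers of JY1605 were lower at 8 °C, against 16.4% of all, and 13.7% were higher, against 16.9% of all.

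The fallers took a smaller share of the counts at 8 h 8 °C than in dry seeds of the other genotype too. The fallers of JY1605 took 0.317%, 0.316% and 0.354% of the counts in JY1621 at 8 h 8 °C and 0.462%, 0.408% and 0.398% in dry seeds. After 36 h at 8 °C they took 0.0809%, 0.086% and 0.0846%. A few abundant models can set such a sum. The median of this list in dry JY1621 seeds was 1.83 CPM, while 1 member lay over 1000 CPM and 5 between 100 and 1000 CPM. Between 36 h and 8 h at 8 °C, 28.2% of the fallers of JY1605 fell in JY1621, against 20.1% of all, and 15.5% rose, against 19.9% of all. The fallers of JY1621 took 0.071% ± 0.0048 of the counts in JY1605 at 8 h 8 °C and 0.0984% ± 0.00598 in dry seeds (SD, n = 3). Their share in JY1605 was 0.0701%, 0.0713% and 0.0703% at 36 h 8 °C, near that at 8 h 8 °C. At 36 h 25 °C it was 0.162%, 0.167% and 0.166%, above that of dry seeds. The sums in CPM, scaled by TMM factors, read otherwise. They fell from 836 to 923 CPM at 8 h 8 °C to 636 to 657 CPM at 36 h 8 °C. At 36 h 25 °C they were 1380 to 1432 CPM, which overlapped the 1216 to 1423 CPM of dry seeds. The 36 h 25 °C group was the highest of the 5 for 47.8% of the list, against 37.8% of all tested models. Of all 278 fallers of JY1621, 36.7% fell in JY1605 between 36 h and 8 h at 8 °C, against 23% of all tested models. In the same comparison 19.1% rose, against 23.8% of all. This excess of later falls was not seen in the fallers with a log2 fold change of at least 2 in size, of which 18.3% in JY1605 and 15.3% in JY1621 fell between 36 h and 8 h.

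The broader lists, called at the adjusted p alone, held many models that fell later. Of the 4818 models lower in JY1621, 85.8% had a negative value in JY1605, against 47.3% of all tested models. In JY1605, 52.8% of them fell between 36 h and 8 h at 8 °C, against 23% of all. Their median level in JY1605 was 29.2 CPM in dry seeds, 25.2 CPM at 8 h 8 °C, 13.9 CPM at 8 h 25 °C, 12 CPM at 36 h 8 °C and 14.8 CPM at 36 h 25 °C. Of the 2518 models lower in JY1605, 92.3% were negative in JY1621, against 52.8% of all. In JY1621, 39.8% of them fell between 36 h and 8 h, against 20.1% of all. Within JY1621 their median was 25.4 CPM in dry seeds, 20.1 CPM at 8 h 8 °C, 13.9 CPM at 8 h 25 °C, 11.4 CPM at 36 h 8 °C and 12.9 CPM at 36 h 25 °C. In both genotypes the median at 8 h 8 °C lay nearer to that of dry seeds than to that of 36 h 8 °C seeds. These lists rest on TMM scaling, as described above, and hold abundant models, which were often negative anyway. Of all models between 10 and 100 CPM in dry seeds of the other genotype, 67.7% were negative in JY1621 and 54.4% in JY1605.

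**Figure D4:**
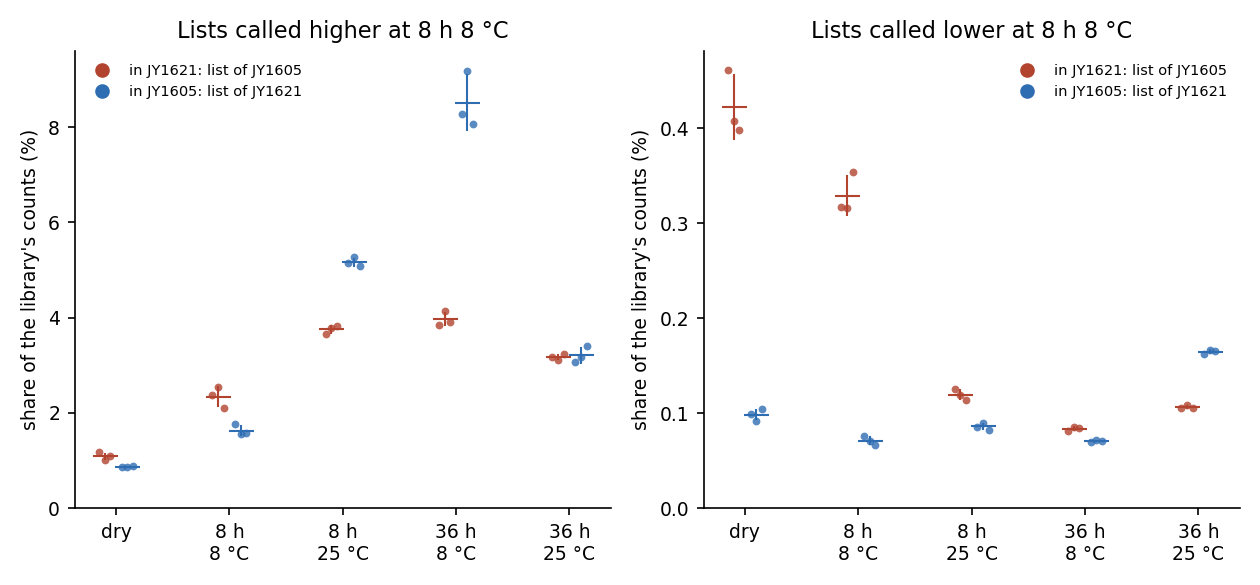
Share of each library's counts (%) taken by the gene models called higher (left) or lower (right) at 8 h 8 °C in the other genotype, by stage. Points are libraries, and crosses are means with SD of 3. In JY1605 the risers of JY1621 take 8.07% to 9.19% at 36 h 8 °C, and in JY1621 the fallers of JY1605 take at most 0.086% there.

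Calls were spread over all chromosomes and both subgenomes. In JY1621, 6.26% of the tested models of the A subgenome and 5.95% of those of the C subgenome rose, and in JY1605 it was 3.05% and 3%. The ratio of the A to the C share was 1.05 in JY1621 and 1.02 in JY1605, where it turned to 0.985 with library size scaling. The share of risers per chromosome ran from 4.99% on C05 to 7.6% on C07 in JY1621, and from 2.55% on C06 to 4.37% on C01 in JY1605. Gene models on unplaced scaffolds rose least often, with 1.66% in JY1621 and 0.998% in JY1605. Of the risers, 19.6% in JY1621 and 13.3% in JY1605 had another riser as a directly neighbouring tested model. Of all tested models, 6.01% rose in JY1621 and 2.98% in JY1605. A model can have a neighbour on either side, so these shares are not directly comparable. How often any tested model lay beside a riser was not computed, so clustering cannot be read from these values. The longest unbroken run was 6 models, on A10 in JY1605.

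The fallers of JY1605 were most frequent on A05, with 34 of 3226 tested models, or 1.05%, against 0.423% over all chromosomes. Of the 34, 28 lay among the middle 50% of the chromosome's models. Their median log2 fold change was -1.18 in JY1605, close to the fold limit. The fallers of JY1605 were also not stable in their members, as described above. In JY1621, 26 of the 28 had a negative value, against 52.8% of all tested models, with a median of -0.72. None of the 28 was called lower there, where 0.48% of all were. At that share, 28 models can well hold none.

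The densest stretch of risers in JY1605 was on C01. Among 50 neighbouring tested models there, 13 rose in JY1605, or 26%, with a median log2 fold change of 2.61. The stretch was picked for this count, so the values of JY1605 at 8 h 8 °C and in dry seeds only describe it. The fold changes of JY1621 had no part in the choice. In JY1621 all 13 had a positive value with a median of 1.11, and 8 of them were called. Of all tested models, 44.5% were positive and 6.01% called higher in JY1621. The 13 models had summed levels of 175, 157 and 115 CPM in JY1621 at 8 h 8 °C and 82.7, 60 and 63 CPM in dry seeds. In JY1605 they had 53.3, 71.1 and 60.4 CPM at 8 h 8 °C and 22.1, 6.19 and 12.6 CPM in dry seeds. The 8 h 8 °C libraries lay above the dry ones in both genotypes, and the range of JY1605 at 8 h 8 °C overlapped that of dry JY1621 seeds.

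The summed level of these models was highest at 8 h in the cold. Their summed mean in JY1621 was 68.5 CPM in dry seeds, 149 CPM at 8 h 8 °C, 35.3 CPM at 8 h 25 °C, 22.5 CPM at 36 h 8 °C and 9.78 CPM at 36 h 25 °C. In JY1605 it was 13.6, 61.6, 12.5, 18.9 and 1.25 CPM in the same order. In JY1621, 11 of the 13 were higher at 8 °C than at 25 °C at 8 h, against 16.9% of all tested models, and 12 of the 13 fell between 36 h and 8 h at 8 °C, against 20.1% of all. Neighbouring models can be copies of one another that share reads, so the summed level is better defined than the share of each. The densest stretch of JY1621, on C09, also had 13 of 50 models called, and 1 of these was called in JY1605, where 2.98% of all were.

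**Figure D5:**
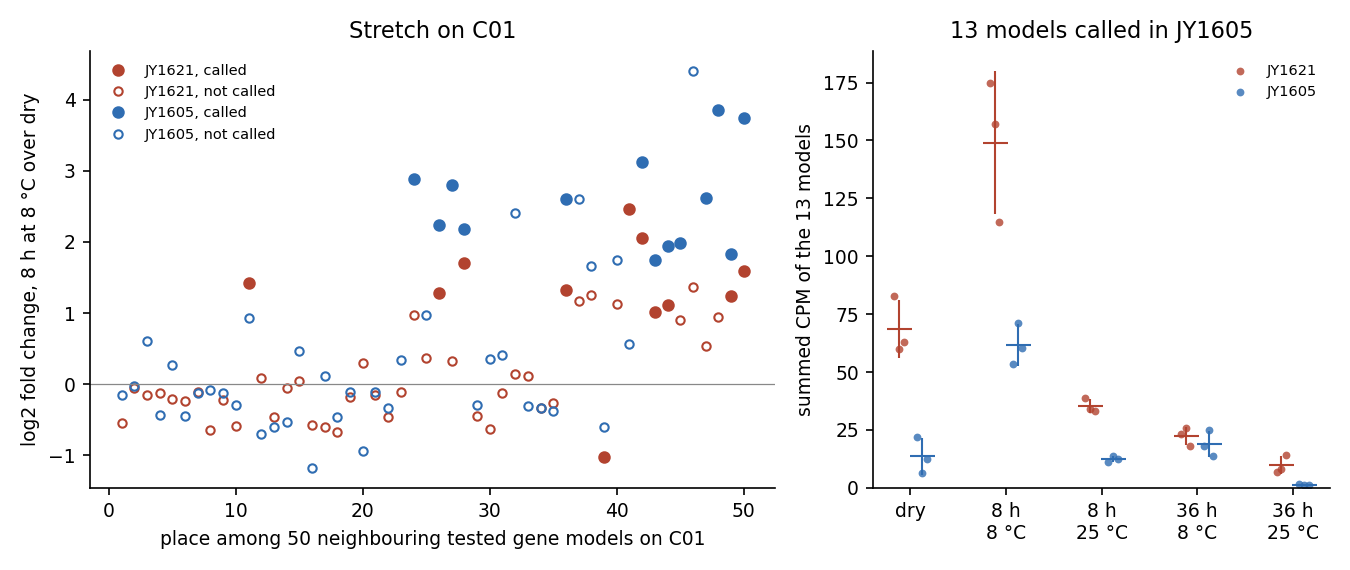
Left, log2 fold change between 8 h 8 °C and dry seeds (vertical axis) of 50 neighbouring tested gene models on C01 in their order along the chromosome (horizontal axis), filled where called. Right, summed CPM of the 13 models called higher in JY1605, by library and stage, with means and SD of 3. The 3 libraries of JY1621 at 8 h 8 °C lie between 115 and 175 CPM, above all others.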

How the data were processed

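Raw gene counts of 30 libraries were deposited by the authors as a table of 100919 gene models. The submitters' processing notes name HISAT2 2.2.1, featureCounts 2.0.6 and DESeq2 1.42.0. Not given in the sources used here are their parameters, the strand setting, the treatment of reads that match several copies, and the genome build. Each column matched a sample by its labels. Of 123214 RefSeq gene rows of another assembly, 0 matched the IDs, so the pathway and marker lists were void.

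Counts were tested with edgeR 4.0.16 (R 4.3.3; quasi-likelihood F-test, robust, TMM factors). A single model held all 30 libraries, with 1 coefficient for each group, after filterByExpr (minimum count 10, minimum total 15). The SE of a log2 fold change is its size divided by the square root of F, which is an approximation. The SE of a genotype difference need not follow from those of the single effects. CPM values are scaled by TMM factors. The fit was tested on simulated data. Libraries of the same group differed by more than sampling noise in all pairs, with a chi-square of 2.62 to 5.16 for each degree of freedom. Bounds for scarce models cover counting error only.

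The comparison, the members, lists and tests were chosen with earlier results of these data known. Gene models given by ID had to be called the same way in JY1621 and JY1605 and to average 8 CPM or more over the 12 libraries. Of these, the 2 in each direction whose weaker log2 fold change was largest in size were taken. Alternatives were DESeq2's size factors, library size scaling, the Wald test of DESeq2 1.42.0, omission of the low-count filter, a fit of the 12 libraries alone, a replicate block, leaving out each library, and other fold limits. Library size scaling of the calls at the adjusted p alone and of the level classes was added after seeing the data.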

Additional observations from a re-analysis of the deposited data

Results flagged for a closer look

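The effect of 8 h at 8 °C differed between genotypes, by a test of the difference itself (edgeR, adjusted p under 0.05, absolute log2 difference of at least 1), in 687 gene models where it was higher in JY1621 than in JY1605 and in 229 where it was lower. In 8 models the calls of the genotypes were opposite in direction, and the difference was called in each of these, which restates how they were chosen. Of these, 6 were among the 278 fallers of JY1621, and 2.98% of all tested models were called higher in JY1605.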

How the results depend on the processing

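Counts of higher and lower calls are given as pairs. Where the doubling was made part of the test (edgeR's glmTreat), they were 1320 and 5 in JY1621, 238 and 5 in JY1605, 22 and 0 for the genotype difference and 199 and 0 for calls shared by both genotypes. With no fold limit they were 6310 and 4818, 5046 and 2518, 1214 and 1159, and 2210 and 1312 in the same order, and at a log2 limit of 2 they were 1527 and 82, 564 and 72, 198 and 55, and 320 and 3. Library size scaling left 124 lower calls in JY1621, 118 lower differences and 9 shared lower calls. Without the low-count filter there were 560 lower differences and 29 shared lower calls. DESeq2's size factors, its Wald test and the fit of the 12 libraries alone kept all 8 counts within 1.5 times.

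Leaving out 1 library gave 2877 to 3539 higher and 224 to 296 lower calls in JY1621, 1243 to 1766 and 178 to 271 in JY1605, and 741 to 938 and 12 to 21 in both. The difference was higher in 483 to 786 and lower in 101 to 392. The gene models called changed more than their counts. At the least, 78.9% of the risers and 45% of the fallers of JY1621 stayed called. In JY1605 it was 62.2% of the risers and 49.4% of the fallers.

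Replicate numbers did not pair the libraries (correlations of deviations -0.021 to 0.0343). With the replicate number as a block the counts were 3396 and 253 in JY1621, 1674 and 225 in JY1605, 646 and 213 for the difference, and 903 and 15 shared. The JY1605 call of BnaA05G0039300ZS (log2 fold change -1.43) was lost under the block, and also in the fit of the 12 libraries, as were the JY1605 call of BnaA05G0039200ZS and the JY1621 call of BnaA05G0039300ZS there. With the DESeq2 Wald test the JY1621 call of BnaA05G0039300ZS was lost at a log2 fold change of -1.18, and it was kept with DESeq2's size factors.

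Of fallers past a log2 fold of 2, 18.3% of those of JY1621 fell later in JY1605 and 15.3% of those of JY1605 in JY1621. With each genotype's own list, which the same libraries chose, the share of counts in risers at 8 h 8 °C over dry was 2.85 in JY1605 and 3.92 in JY1621. The cause of these changes was not tested. Depth limits the scarce models, whose calls rest on few counts.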
